A study of Mus musculus with 25 samples.

Results

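The step from 1 h to 4 h of IFN-γ and LPS stimulation was examined in mouse bone marrow-derived macrophages (BMDMs), by a direct test of the 4 h samples against the 1 h samples. The comparison used 6 of the 25 samples of the series, taken by the treatment and time in their labels, with 3 samples at 1 h and 3 at 4 h. Marrow cells of C57BL/6 mice were differentiated with 25 ng/ml M-CSF for 4 days, and both groups then received IFN-γ at 100 U/ml and LPS at 100 ng/ml. The study describes the cells as primed with IFN-γ. How long IFN-γ preceded LPS, and the age and sex of the mice, are not given in the sources used here. Unstimulated BMDMs, labelled as cultured for 4 h, and the 12 h and 24 h samples of the same time course (3 each) enter as reference levels. The question was which transcripts of the first hour had ended by 4 h and which had only then begun. The other samples of the series are treated with IL-4 or IL-13 or come from a macrophage cell line, and were not used.

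LPS is sensed by TLR4, which acts through MyD88 and TRIF to switch on MAP kinases, NF-κB and IRF3. Immediate early genes respond first, because their transcription needs no newly made protein, and many of their short-lived mRNAs encode transcription factors and the phosphatases and decay factors that end the response. A second wave follows, in which secreted type I interferon acts back on the cells through JAK kinases, STAT factors and IRF9, and IFN-γ acts through its own receptor and JAK kinases.

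The values are counts of RNA-seq reads per gene on the gene's own strand. Levels are given as CPM, counts scaled to a fixed library total, after TMM normalization, which scales samples so that most genes have a ratio near 1. After leaving out Rn45s, a ribosomal RNA precursor that took 26.3% to 34.7% of the gene counts at 1 h and 27.4% to 36.8% at 4 h, 1654877 to 2101752 counts per sample were left at 1 h and 1502618 to 1796271 at 4 h. At this depth a gene with few counts at one time has a wide interval. The labels call the RNA polyA RNA, whereas their protocol describes removal of ribosomal RNA. The macrophage markers were present at both times: the 12 listed, Lyz2, Cd68 and Csf1r among them, summed to 37720 to 39950 CPM at 1 h and 35960 to 39870 CPM at 4 h, and 0 of them passed the cutoffs given below. Neutrophil markers summed to 29.1 to 40.0 CPM at 1 h and 33.4 to 46.0 CPM at 4 h, with Mpo, Retnlg and Prtn3 at 0. Cd79a, Ms4a1 and Pax5 of the B cell list and Cd3d, Cd3e, Cd3g, Cd8a and Gzma of the T and NK cell list were at 0 in all 6 samples. The erythroid list reached at most 0.791 CPM and the mast cell list at most 0.695 CPM in any of the 6, and the T and NK cell list 4.07 to 9.20 CPM at 1 h and 5.56 to 7.91 CPM at 4 h. Stromal markers summed to 57.7 to 73.8 CPM at 1 h and 84.8 to 129.8 CPM at 4 h, against 72.45 to 104.9 CPM in the control. Of the 4 tested, 1, Pdgfrb, rose from 3.56 to 30.5 CPM. Dendritic cell markers summed to 44.6 to 49.5 CPM at 1 h and 13.2 to 20.6 CPM at 4 h, mostly from Clec9a (45.9 and 13.6 CPM), while Flt3 and Siglech were at 0. In the unstimulated control the dendritic cell list summed to only 0.495 to 1.01 CPM. The part of these stromal and dendritic cell markers in the results was not tested.

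Between 1 h and 4 h the transcriptome turned over in both directions. Of 9568 genes tested, 676 rose and 665 fell by a log2 fold change of at least 1.5 at a Benjamini-Hochberg adjusted p of at most 0.01 in the quasi-likelihood test of edgeR. These are 7.07% and 6.95% of the genes tested, or 14.0% in either direction, and they are the background for every count given below. In 186 of the genes that rose and 163 of those that fell, the log2 fold change was at least 3 in size. In 1335 of the 1341 called genes all samples of one time lay beyond all samples of the other. Over all tested genes, every 4 h sample lay above every 1 h sample in 27.4% and below in 28.8%. The samples of 1 h lay 0.366 to 0.389 apart and those of 4 h 0.465 to 0.511 apart (root mean square difference in log2 CPM), and samples of different times 1.13 to 1.17 apart. The median log2 fold change of all genes was −0.03. The TMM factors were 1.04 to 1.05 at 1 h and 0.803 to 0.844 at 4 h. Scaled by library totals alone, an alternative added after seeing the data, the median of all genes moved by −0.34, and 482 genes rose and 1057 fell, so that 31.3% of the calls were rises instead of 50.4%. In bulk RNA, fewer cells with a transcript and less of it per cell cannot be told apart.

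**Figure D1:**
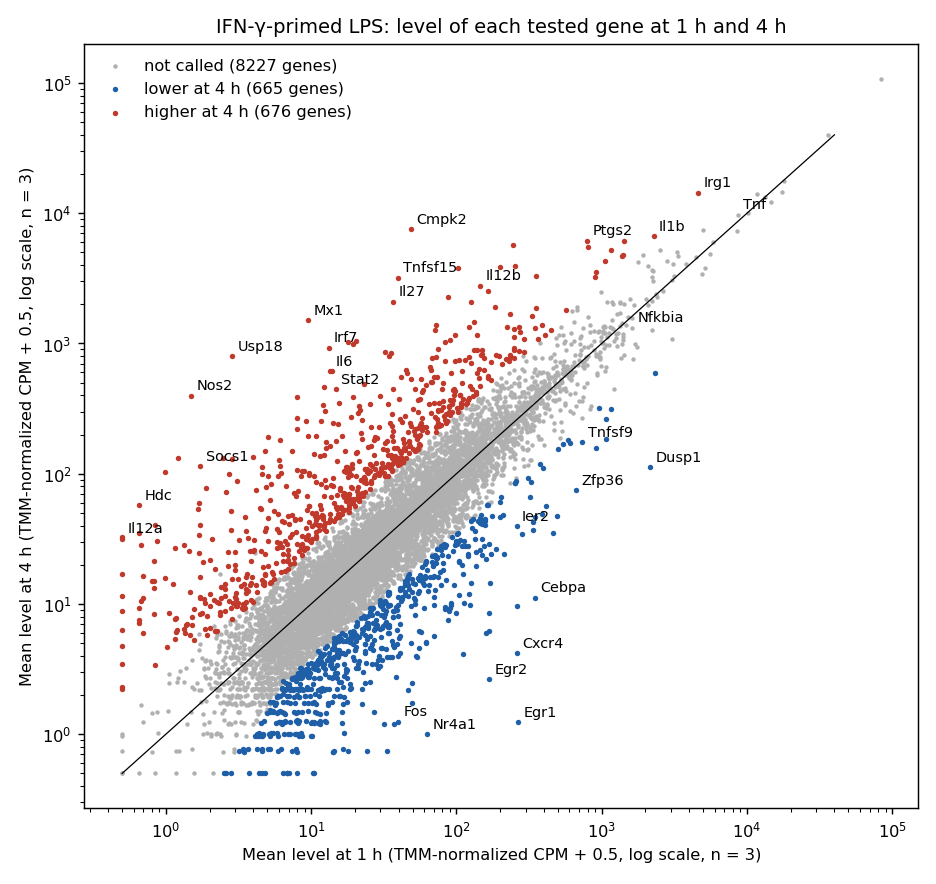
Mean level of each of the 9568 tested genes at 1 h (x axis) and at 4 h (y axis), in TMM-normalized CPM plus 0.5 on log scales (n = 3 each), with the line of equal levels; red genes rose (676), blue genes fell (665) and grey genes did not pass the cutoffs. Nos2, Usp18, Mx1 and Cmpk2 lie far above the line, and Egr1, Nr4a1, Fos and Egr2 far below it.

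Many of the immediate early transcription factors fell, and those that did mostly ended below their control level. Of 27 listed factors 23 were tested, 11 fell, 2 rose and 10 did not pass, with a median log2 fold change of −1.41 against −0.03 for all genes. All 11 that fell had been above the control mean at 1 h, 10 of them at least 2-fold, and 10 of the 11 were below the control mean at 4 h. Egr1, a zinc finger factor induced by serum and MAP kinase signals, was at 261, 266 and 268 CPM at 1 h and at 0.791, 0.695 and 0.731 CPM at 4 h, against a mean of 5.01 CPM in the control. These 3 counts at 4 h against 1550 at 1 h give a ratio of 0.00278 (95% counting interval 0.000573 to 0.00815), with an edgeR adjusted p of 2.63e-31. Against the control, Egr1 at 4 h was also lower (log2 fold change −2.66, edgeR adjusted p = 0.000147). So all 3 samples at 4 h lay far below those at 1 h, with no overlap.

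Egr2, Nr4a1 and Fos had the same course. Egr2, the related factor, was at 159, 166 and 177 CPM at 1 h and at 0.791, 3.47 and 2.19 CPM at 4 h. Nr4a1, the orphan nuclear receptor Nur77, was at 70.3, 54.8 and 61.2 CPM at 1 h and at 0.791, 0.695 and 0 CPM at 4 h. Fos, the AP-1 subunit, was at 47.9, 42.5 and 26.7 CPM at 1 h and at 0.791, 0 and 1.46 CPM at 4 h. In each of these genes the 2 times were far apart with no overlap. The fitted log2 fold change of Egr2 was −6.20 (SE 0.25), and the count ratios were 0.00788 for Nr4a1 (interval 0.000951 to 0.0287) and 0.0192 for Fos (0.00392 to 0.0568). Egr3 went from 7.49 CPM to 0 counts, at least 10.0-fold lower when 3 counts over the group are taken as the floor. Jun fell from 211 ± 17.1 to 23.8 ± 5.01 CPM (SD, n = 3), from a control mean of 100.8 CPM, and Myc fell from 39.1 ± 4.98 to 3.51 ± 2.80 CPM, from a control mean of 11.2 CPM. Ier2 was the member that stayed above the control: it was at 257, 262 and 259 CPM at 1 h, at 46.7, 41.0 and 30.0 CPM at 4 h, and at 19.2 CPM in the control.

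The early factors did not all end together. Junb, the other inducible Jun protein, was at 2214 ± 85.0 CPM at 1 h and at 1259 ± 133 CPM at 4 h (log2 fold change −0.82, 95% interval −0.99 to −0.64), below the size cutoff and far above its control mean of 175.9 CPM. Csrnp1, Maff and Klf6 likewise did not reach the cutoff (−1.41, −0.91 and −0.48). Atf3, a stress-induced repressor of inflammatory genes, was at 345, 328 and 395 CPM at 1 h and at 347, 439 and 395 CPM at 4 h, and the times overlapped (log2 fold change 0.14, interval −0.07 to 0.36). The 2 members that rose stood low at 1 h. Nr4a3, a relative of Nr4a1, rose from 5.03 ± 1.24 to 51.3 ± 10.9 CPM, and Mafk, a small Maf protein, from 10.3 ± 1.10 to 46.7 ± 0.107 CPM. Nr4a1 and Nr4a3 are thus members of one receptor family with opposite changes over this step.

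Some of the MAP kinase phosphatases and mRNA decay factors, known as brakes on inflammatory signalling, also fell. Of 9 dual-specificity phosphatases tested, 5 fell and 0 rose, with a median of −1.58. Dusp1, which inactivates p38 and JNK, was at 2075, 2201 and 2148 CPM at 1 h and at 139, 91.7 and 105 CPM at 4 h. The 1 h samples are all far above the 4 h samples, and the control mean was 46.2 CPM. The log2 fold change was −4.26 (SE 0.15, edgeR adjusted p = 7.71e-19). Dusp5, an ERK phosphatase, fell from 53.6 ± 5.63 to 11.6 ± 2.33 CPM, and Dusp8 from 20.9 ± 5.04 to 5.12 ± 1.68 CPM. Dusp6 and Dusp3, with log2 fold changes of −1.60 and −1.58, were already below the control at 1 h. Dusp2, Dusp4, Dusp7 and Dusp16 did not pass, and Dusp2 was still at 312 CPM at 4 h against 8.17 CPM in the control.

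The window before the Dusp1 start site is shown because it carries a full cyclic AMP response element, the site of CREB and ATF proteins. The 250 bases are from RefSeq (GRCm38.p6, chr17:26508473-26508722, minus strand), and the capitals mark the element, TGACGTCA, at −143 to −136 from the start site.
Dusp1: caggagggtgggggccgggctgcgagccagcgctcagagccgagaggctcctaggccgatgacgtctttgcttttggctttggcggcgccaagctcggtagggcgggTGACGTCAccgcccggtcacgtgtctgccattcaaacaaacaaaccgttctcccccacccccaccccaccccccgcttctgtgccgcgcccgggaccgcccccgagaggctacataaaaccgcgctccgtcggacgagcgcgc
This element was found in 3.96% of the genes that fell and 1.74% of those that rose, against 3.54% of all genes with a window.

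Of 12 mRNA decay regulators, 5 fell and 0 rose (median −1.01). Zfp36, or tristetraprolin, which binds AU-rich elements of cytokine mRNAs and leads to their decay, was at 676, 586 and 745 CPM at 1 h and at 74.4, 73.7 and 75.3 CPM at 4 h. The samples did not overlap, and the log2 fold change was −3.17 (SE 0.16, edgeR adjusted p = 1.70e-15). Its relatives Zfp36l1 and Zfp36l2 fell to below the control mean, Zfp36l1 from 160.3 ± 5.22 to 5.48 ± 2.20 CPM (control 53.9 CPM) and Zfp36l2 from 124 ± 8.56 to 9.40 ± 7.199 CPM, already at its control level at 1 h. Btg2 and Tob1, adaptors of the deadenylase complex, fell by 2.88 and 1.85 on the log2 scale. The endonuclease Zc3h12a (Regnase-1) and the roquins Rc3h1 and Rc3h2 did not pass, with log2 fold changes of 0.39, 0.85 and 0.58.

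**Figure D2:**
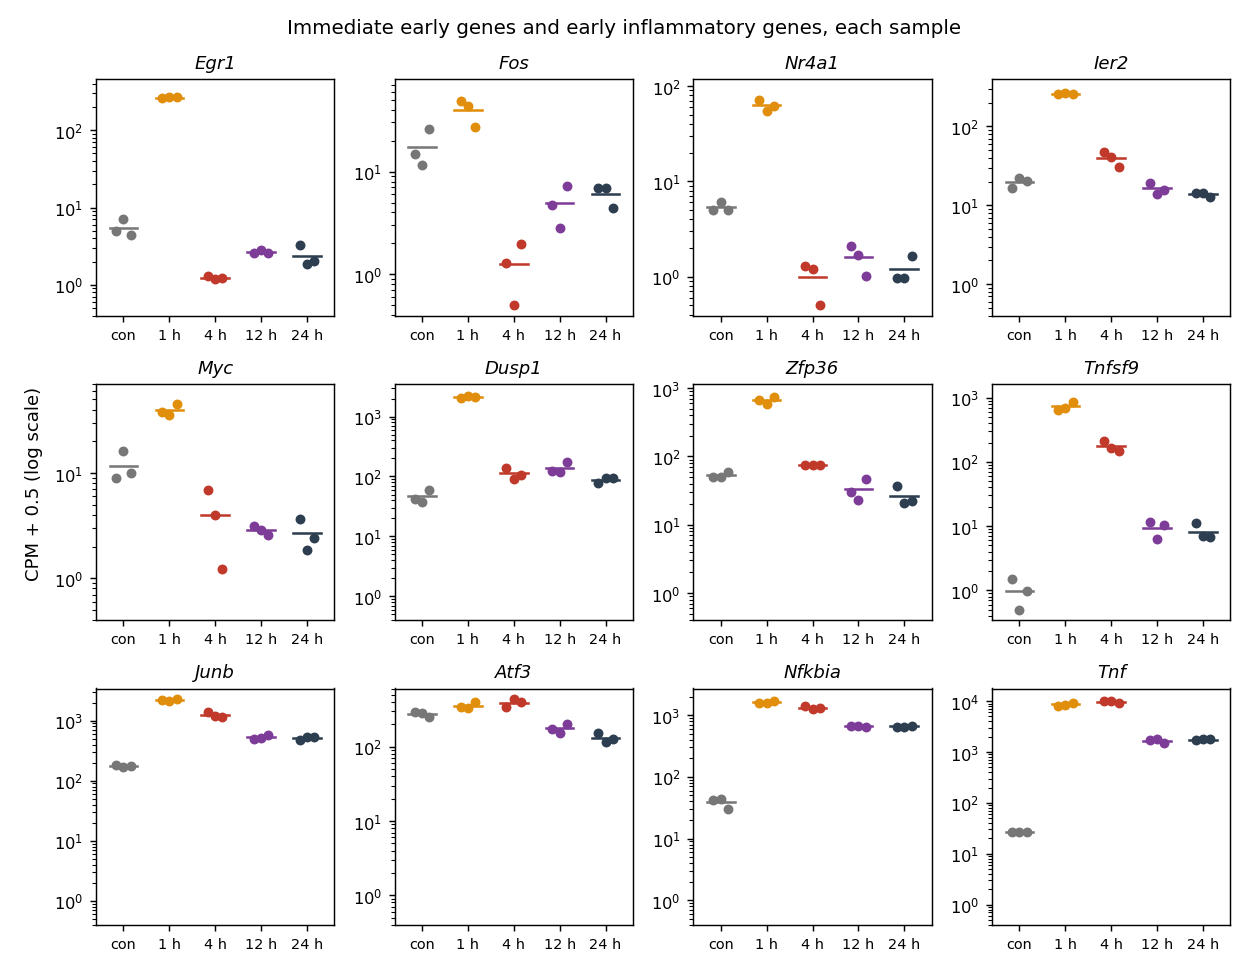
Levels of 12 early genes in each sample of the control (con) and of 1, 4, 12 and 24 h, in TMM-normalized CPM plus 0.5 on log scales that differ between panels; points are samples and lines are group means (n = 3). Egr1, Fos, Nr4a1, Ier2, Myc, Dusp1, Zfp36 and Tnfsf9 stand far lower at 4 h than at 1 h, whereas Junb, Atf3, Nfkbia and Tnf differ between 1 h and 4 h by less than the cutoff.

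Some early inflammatory transcripts were still high at 4 h. Tnf, the early cytokine of the LPS response, was at 8148, 8396 and 9401 CPM at 1 h and at 9965, 10140 and 9221 CPM at 4 h, with a control mean of 26.1 CPM. The groups overlapped, the log2 fold change was 0.18 (95% interval 0.01 to 0.34), and the edgeR adjusted p was 0.0728. The neutrophil chemokines Cxcl1 and Cxcl2 were lower in every 4 h sample, by less than the cutoff. Cxcl1 was at 559.8 ± 81.9 CPM at 1 h and 339 ± 10.7 CPM at 4 h (−0.73, interval −0.95 to −0.50), and Cxcl2 at 1275 ± 145 and 956 ± 62.4 CPM (−0.42, interval −0.72 to −0.12). These intervals leave out a change of the cutoff's size. With library totals, Tnf had a log2 fold change of −0.16, so the sign of so small a value depends on the scaling, and the same held for Atf3 (−0.20).

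Among 25 NF-κB subunits, inhibitors and brakes, 6 rose, 1 fell and 18 did not pass (median 0.89). The inhibitors went both ways. Nfkbib and Nfkbie, which encode IκBβ and IκBε, were higher in every 4 h sample, at 130.9 and 313 CPM (1.26) and at 131 and 246 CPM (0.91), by less than the cutoff. Nfkbia, which encodes IκBα, was at 1573, 1578 and 1695 CPM at 1 h and at 1395, 1275 and 1303 CPM at 4 h (−0.29, interval −0.46 to −0.11), and Tnfaip3, the deubiquitinase A20, was at 4867 ± 176 and 3402 ± 127 CPM (−0.52, interval −0.69 to −0.35). Both were lower in every 4 h sample, by less than the cutoff, and remained far above the control means of 38.2 and 52.2 CPM. Nfkbiz, the atypical IκBζ, was just short of the cutoff at −1.49, and Nfkbid, the related IκBNS, fell from 109 ± 8.44 to 27.3 ± 3.01 CPM. Without 1 h replicate 1 or 4 h replicate 2, 2 members instead of 1 fell. The members that rose were the precursor subunits Nfkb1 (108 to 614 CPM) and Nfkb2 (126 to 709 CPM), the adaptor Traf1 (56.4 to 534 CPM), the ubiquitin ligases Peli1 and Birc2 and the kinase Ikbke. Rela, Relb and Rel did not pass, at 1.02, 0.82 and 0.06.

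The Nfkbia window is shown because it places a κB site next to the start. In the 250 bases before it (RefSeq, GRCm38.p6, chr12:55492648-55492897, minus strand), the capitals mark the κB site at −29 to −20, read on the opposite strand.
Nfkbia: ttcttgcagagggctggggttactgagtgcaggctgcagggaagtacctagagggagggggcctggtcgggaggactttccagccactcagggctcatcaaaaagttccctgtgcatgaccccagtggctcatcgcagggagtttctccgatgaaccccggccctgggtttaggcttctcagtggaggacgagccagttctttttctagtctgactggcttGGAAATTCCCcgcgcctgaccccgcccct
A κB site stood in 7 of the 16 members of this list with a single window, or 43.8%, against 5.17% of all genes, 7.69% of those that rose and 4.75% of those that fell.

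The second wave was widest among the type I interferon-stimulated antiviral genes. Of 34 tested, 33 rose and 0 fell, with a median log2 fold change of 4.26 and a range of 1.51 to 8.35 among those that rose. All 33 had 4 h samples above all 1 h samples, and 19 of them had their highest mean of the 5 groups at 4 h. Bst2, tetherin, was the member that did not pass, at 1.00. Usp18, the protease that removes ISG15 and restrains interferon receptor signalling, was at 2.55, 1.75 and 2.76 CPM at 1 h and at 844, 790.1 and 770.2 CPM at 4 h. The 1 h samples were near the control mean of 1.17 CPM, and the 4 h samples lay far above without overlap (log2 fold change 8.35, SE 0.18, edgeR adjusted p = 8.97e-37). Mx1, a gene of the Mx GTPase family, was at 9.17, 8.16 and 9.66 CPM at 1 h and at 1628, 1377 and 1524 CPM at 4 h. Cmpk2, a mitochondrial nucleotide kinase, was at 34.6, 50.7 and 59.3 CPM at 1 h and at 7297, 8058 and 7304 CPM at 4 h. All 3 genes thus rose by more than 7 on the log2 scale, from a level at 1 h that for Mx1 and Cmpk2 already exceeded the control means of 0.169 and 3.50 CPM.

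Members of this list differed in how far they had already come at 1 h. Against the control mean, 21 of the 33 that rose stood at least 2-fold higher at 1 h. Isg15, the ubiquitin-like modifier, was at 122 ± 20.5 CPM at 1 h and 1338 ± 87.5 CPM at 4 h, with a control mean of 1.66 CPM. Ifih1, the RNA sensor MDA5, was already at 408 CPM at 1 h and rose the least, to 1162 CPM. Its relative Ddx58, or RIG-I, was at 2.57 CPM at 1 h, against 3.50 CPM in the control, and rose to 87.7 CPM. The 2′-5′ oligoadenylate synthetases Oas1a, Oas1b, Oas1g, Oas2 and Oas3 rose by 2.97 to 5.54 on the log2 scale, and since the Oas1 genes are close copies of one another, counts can be split between those uncertainly.

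Ifit1, Cxcl10 and Socs1 windows are shown because each carries the core of the interferon-stimulated response element, and each gene rose strongly. The 250 bases before each start site come from RefSeq (GRCm38.p6), and the capitals mark the core, GAAANNGAAA, searched on both strands. For Ifit1 they are chr19:34640639-34640888, plus strand, for Cxcl10 chr5:92348890-92349139, minus strand, and for Socs1 chr16:10785537-10785786, minus strand.
Ifit1: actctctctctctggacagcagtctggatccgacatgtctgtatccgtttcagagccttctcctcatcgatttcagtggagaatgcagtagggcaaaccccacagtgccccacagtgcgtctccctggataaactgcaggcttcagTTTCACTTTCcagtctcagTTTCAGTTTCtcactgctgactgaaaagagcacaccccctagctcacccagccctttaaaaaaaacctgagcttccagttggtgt
Cxcl10: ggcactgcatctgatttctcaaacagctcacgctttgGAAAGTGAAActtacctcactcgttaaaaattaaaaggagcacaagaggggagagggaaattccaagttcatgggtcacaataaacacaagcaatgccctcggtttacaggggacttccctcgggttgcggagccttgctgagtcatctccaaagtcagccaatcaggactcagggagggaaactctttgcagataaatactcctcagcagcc
Socs1: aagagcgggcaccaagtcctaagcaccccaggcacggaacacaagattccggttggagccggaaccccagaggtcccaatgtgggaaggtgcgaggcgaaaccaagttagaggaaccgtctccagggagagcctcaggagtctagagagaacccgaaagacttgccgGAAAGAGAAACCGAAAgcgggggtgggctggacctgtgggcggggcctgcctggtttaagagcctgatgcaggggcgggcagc
Ifit1 held the core at −104 to −95 and at −85 to −76, both on the opposite strand. Cxcl10 held it at −213 to −204, with κB sites that are not capitalized at −159 to −150 and −103 to −94. Socs1 held 2 overlapping copies, at −83 to −74 and −77 to −68. Over the genes with a single window of 250 bases before and 50 after the start (6165 of the 9568 tested), the core was found in 14.6% of the genes that rose (59 of 403), 1.85% of those that fell (7 of 379) and 3.60% of all. In the antiviral list it was found in 13 of 21, or 61.9%. These are matches of letters and not measured sites.

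The IFN-γ-inducible GTPases, which attack the vacuoles of intracellular pathogens, rose in 13 of 16 tested members, fell in 1 and had a median of 2.70. The relatives Gbp2 and Gbp5 differed in timing. Gbp2 was at 2354, 2486 and 2266 CPM at 1 h and at 2353, 2459 and 2406 CPM at 4 h, with a control mean of 2.49 CPM (log2 fold change 0.02, interval −0.15 to 0.20, and −0.32 with library totals). Its groups overlapped, and its level at 4 h was that of 1 h. Gbp5, with a control mean of 1.495 CPM, rose from 803 ± 50.7 to 5464 ± 463 CPM. Among the immunity-related GTPases, Irgm2 rose from 11.8 ± 0.604 to 464 ± 23.4 CPM, and it was not above its control mean of 14.8 CPM at 1 h. Tgtp1 and Tgtp2 rose by 4.51 and 3.99, and being near-identical copies they are uncertain as separate genes. Gbp8 was called lower (33.9 ± 4.13 to 11.9 ± 5.32 CPM, log2 fold change −1.52), a call that was lost with 1 h replicate 1, 1 h replicate 3 or 4 h replicate 2 left out (−1.49, −1.46 and −1.19).

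The factors that carry interferon signals rose unevenly. Of 15 IRF, STAT and BATF genes, 8 rose and 0 fell, with a median of 1.78. Irf7, which amplifies type I interferon production, was at 11.2, 14.0 and 12.9 CPM at 1 h and at 1062, 892 and 832 CPM at 4 h, with no overlap (log2 fold change 6.19, SE 0.13, edgeR adjusted p = 1.51e-36). Stat2, a factor of the type I interferon response, rose from 14.2 ± 1.5 to 445 ± 20.4 CPM, and at 1 h it had been below its control mean of 24.6 CPM (log2 fold change −0.79, edgeR adjusted p = 0.000805). Irf8 rose from 66.2 to 508 CPM, Irf9 from 35.3 to 132 CPM and Batf from 2.31 to 36.4 CPM. Irf1, which responds to IFN-γ directly, was already high at 1 h and did not reach the cutoff. Irf1 was at 1433 ± 77.0 and 2013 ± 125 CPM (0.49, interval 0.32 to 0.66), higher in all 3 samples at 4 h.

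The SOCS genes, feedback inhibitors of JAK kinases, differed in the same way. Of 7 tested, 3 rose. Socs1 was at 1.02, 1.75 and 0.920 CPM at 1 h, near its control mean of 1.34 CPM, and at 124, 113 and 105 CPM at 4 h (log2 fold change 6.50, SE 0.29, edgeR adjusted p = 2.17e-23). Socs3 was at 561, 521 and 546 CPM at 1 h, far above its control mean of 0.672 CPM, and at 695, 617 and 596 CPM at 4 h (0.23, interval 0.04 to 0.42, and −0.11 with library totals). Socs1 was thus in place only at the later time and Socs3 at both. Cish, a STAT5 target, rose from 2.70 ± 0.464 to 30.5 ± 0.841 CPM and was at 0.696 CPM by 12 h, and Socs7 rose from 66.1 ± 3.46 to 290.1 ± 12.7 CPM.

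Cytokines moved in both directions. Of 25 tested, 14 rose and 4 fell (median 2.10). Il12a, Il12b, Il27 and Ebi3 of the IL-12 family rose, and Il23a did not. Il12a, which encodes p35, had 0 counts in all 1 h and control samples and was at 32.4, 34.7 and 26.3 CPM at 4 h, at least 60.9-fold higher with 3 counts over the group as the floor. Il12b, which encodes p40, was at 129.9, 129.9 and 178 CPM at 1 h and at 2609, 2777 and 2943 CPM at 4 h (log2 fold change 4.24, SE 0.23, edgeR adjusted p = 1.05e-08). Il27, which encodes the p28 subunit of IL-27, was at 33.1, 29.7 and 46.0 CPM at 1 h and at 2312, 2032 and 1934 CPM at 4 h, and Ebi3, its partner subunit, rose from 17.8 to 110 CPM. Each of these genes was higher in all 4 h samples without overlap. Il23a, the p19 subunit that pairs with p40 to form IL-23, did not pass and was at 22.3 and 12.0 CPM (−0.88).

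Il6, the acute phase cytokine, was at 8.66, 14.6 and 15.6 CPM at 1 h and at 572, 650 and 614 CPM at 4 h (log2 fold change 5.55, SE 0.24, edgeR adjusted p = 6.87e-12). The gene lies on chromosome 5 (30013114 to 30019981, plus strand, GRCm38, GENCODE M21) and had 0 counts in the control. Tnfsf15, the TNF family ligand TL1A, rose from 38.9 ± 6.24 to 3204 ± 456 CPM and Il15, a growth factor of NK and memory T cells, from 13.4 to 612 CPM. Il1a rose from 1419 ± 147 to 6080 ± 727 CPM and its antagonist Il1rn from 351 to 1886 CPM. Il1b rose from 2280 ± 295 to 6648 ± 567 CPM (log2 fold change 1.54), just past the cutoff, and it lost the call with 1 h replicate 1 left out (1.48) and with library totals (1.20). The 4 cytokines that fell were of the early kind. Tnfsf9, the 4-1BB ligand, was at 642, 699 and 866 CPM at 1 h and at 213, 164 and 145 CPM at 4 h, with a control mean of 0.496 CPM, and Osm and Vegfa fell by 1.86 and 1.71. Ifnb1, the type I interferon gene of macrophages, was at 42.3, 61.2 and 79.6 CPM at 1 h and at 22.95, 22.2 and 16.1 CPM at 4 h. Its call (−1.58) was lost without 1 h replicate 3 (−1.33) or 4 h replicate 3 (−1.44), although every 4 h sample was lower. Il10 did not pass (48.8 ± 10.6 and 26.3 ± 5.70 CPM, −0.87).

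Several chemokines rose. Of 9 CXC genes 4 rose and of 9 CC genes 6 rose, and 0 of either fell. Cxcl10, which attracts CXCR3-bearing T cells, was at 164, 172 and 216 CPM at 1 h and at 1925, 1831 and 1934 CPM at 4 h (log2 fold change 3.36, SE 0.10, edgeR adjusted p = 2.83e-31). Cxcl11, its relative, rose from 5.70 ± 1.45 to 99.9 ± 10.5 CPM. Cxcl9, the third CXCR3 ligand, was already at 803 ± 45.9 CPM at 1 h and at 1590 ± 226 CPM at 4 h (0.99, interval 0.78 to 1.20), higher in all samples but under the cutoff. Among the neutrophil chemokines, Cxcl3 rose from 4 counts at 1 h to 26.6 ± 1.83 CPM and Cxcl5 from 0.671 to 5.59 CPM, in contrast to the values of Cxcl1 and Cxcl2 given above. Ccl5, a chemokine for T cells and monocytes, was at 140.0, 170.1 and 184 CPM at 1 h and at 3024, 2315 and 2211 CPM at 4 h. Ccl22 rose from 5.60 ± 2.68 to 114 ± 3.46 CPM and Ccl3 from 1151 ± 227 to 5228 ± 504 CPM. Ccl4, the neighbour of Ccl3, was at 1920.0 ± 416 and 4802 ± 333 CPM (1.32), and it passed the cutoff when 1 h replicate 3 was left out (1.51).

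Inflammatory effector genes, mostly of enzymes but also Saa3, Lcn2 and C3, rose in 13 of 18 tested members and fell in 0 (median 2.03). Nos2, the inducible nitric oxide synthase, was at 1.02, 0.583 and 1.38 CPM at 1 h and at 447, 329 and 418 CPM at 4 h, with 0 counts in the control. The 6 counts at 1 h became 1610 at 4 h (log2 fold change 8.51, SE 0.47, edgeR adjusted p = 7.74e-08). Hdc, which makes histamine, went from 1 count to 232, a ratio of 334 with a counting interval of 59.3 to 13230. Both enzymes were thus almost absent at 1 h. Ptgs2, cyclooxygenase-2, rose from 792 ± 74.3 to 6151 ± 745 CPM, and Irg1, which makes itaconate, from 4605 ± 556 to 14370 ± 1202 CPM (1.64, and 1.303 with library totals, below the cutoff). Saa3, an acute phase apolipoprotein, was at 32.0 CPM at 1 h, 857 CPM at 4 h and 27940 CPM at 24 h. Of the glycolytic genes and HIF1A targets, 0 of 17 passed (median 0.20), with Pfkfb3 just short of the cutoff at 1.496, and Hif1a at 1.08. This count of 0 became 1 with 1 h replicate 1, 4 h replicate 2 or 4 h replicate 3 left out, with DESeq2 or its size factors, with unstranded counts, with Rn45s kept and with the replicate block.

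**Figure D3:**
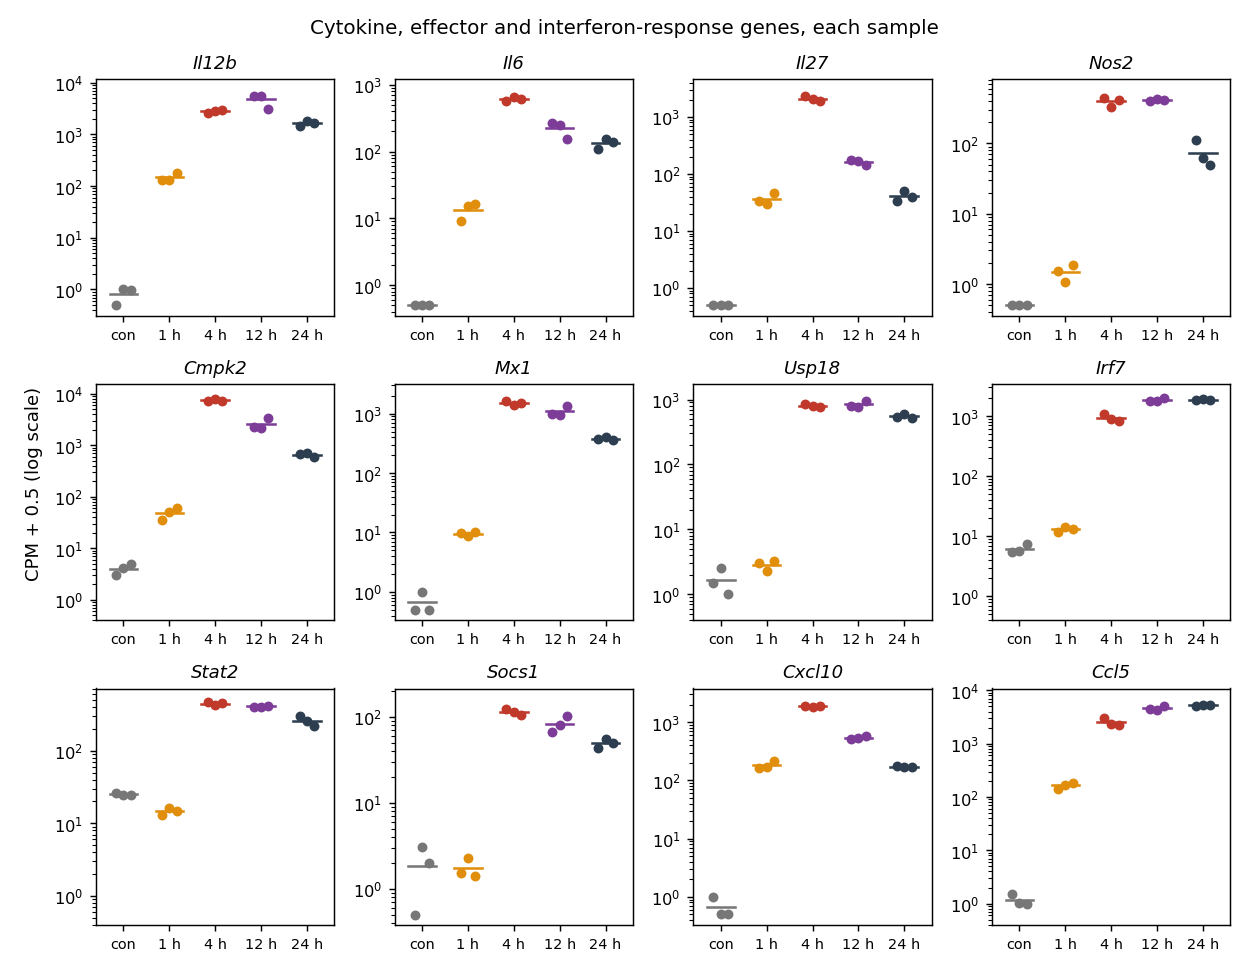
Levels of 12 genes of the second wave in each sample of the control (con) and of 1, 4, 12 and 24 h, in TMM-normalized CPM plus 0.5 on log scales that differ between panels; points are samples and lines are group means (n = 3). All 12 stand higher at 4 h than at 1 h, with Usp18, Stat2 and Socs1 at 1 h near or below the control and Il27 and Cxcl10 falling again by 12 h.

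Antigen presentation genes mostly stayed under the cutoff, and costimulation genes passed it more often. Of 16 MHC class I and immunoproteasome genes, 2 rose, namely the peptide transporter Tap1 (139 ± 6.77 to 888 ± 39.2 CPM) and the class I transactivator Nlrc5 (150.1 ± 13.6 to 890.1 ± 91.3 CPM). The median of this list was 0.73, against −0.03 for all genes, and 6 members rose with the size cutoff lowered to 1. The other 14 included 13 without overlap between the times, such as B2m (0.41) and H2-K1 (0.73), at sizes below the cutoff. Of 8 MHC class II genes 0 passed (median 0.21), although all 8 stood above the control at 1 h, and Cd74 was at 3372 and 4702 CPM (0.48). Of 11 costimulatory and adhesion genes 8 rose and 0 fell. Cd40, the receptor for T cell help, was at 334, 311 and 414 CPM at 1 h and at 3410, 3305 and 3181 CPM at 4 h (log2 fold change 3.22, SE 0.10, edgeR adjusted p = 1.42e-29). Cd69 rose from 71.6 ± 10.9 to 1398 ± 202 CPM and Cd80 from 8.90 to 67.2 CPM, whereas Cd86 was at 96.7 and 195 CPM (1.01) and did not pass.

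The receptors for microbial ligands and their adaptors, taken as 1 list, were divided. Of 16 tested, 4 rose (Tlr1, Tlr3, Tlr7 and the adaptor Myd88) and 1 fell. The receptors of endosomal RNA went opposite ways: Tlr3 rose from 9.89 ± 3.19 to 95.3 ± 7.36 CPM and Tlr7 from 248 ± 13.5 to 884 ± 111 CPM, whereas Tlr13, which binds bacterial ribosomal RNA, fell. Tlr13 was at 1016, 1140 and 1077 CPM at 1 h, close to its control mean of 1000 CPM, and at 242, 288 and 258 CPM at 4 h (log2 fold change −2.04, SE 0.11, edgeR adjusted p = 8.78e-21). The samples did not overlap, and Tlr13 stayed near this level at 12 h and 24 h (331 and 298 CPM). Tlr4, the LPS receptor, did not reach the cutoff (134 to 61.5 CPM, −1.12). With library totals the rise of Tlr7 was 1.49, just under the cutoff, and 1 member of the list rose instead of 4.

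A further set of genes was not 2-fold above the control at 1 h and fell below it by 4 h. Of 20 transcription factors of macrophage identity, 9 fell, 1 rose and 10 did not pass (median −1.25), and all 9 that fell were below the control mean at 4 h. At 1 h, 3 of the 9 had been above it, and 0 of them by 2-fold. Cebpa, a factor of myeloid differentiation, was at 337, 349 and 350.4 CPM at 1 h and at 12.7, 7.64 and 11.7 CPM at 4 h. The control mean was 414 CPM, and the 4 h samples lay far below both (log2 fold change −5.02 from 1 h, SE 0.17, edgeR adjusted p = 1.71e-29). Fli1, an ETS factor, fell from 172 ± 16.4 to 23.6 ± 1.55 CPM, and the nuclear receptors Rxra and Pparg fell by 2.85 and 2.53. Mef2c and Mef2d, Bhlhe40 and Bhlhe41 fell as pairs of relatives. Spi1, which encodes PU.1, and Cebpb did not pass and had positive values (0.82 and 0.56), and Mitf rose from 127.5 ± 7.46 to 445 ± 54.2 CPM (1.81, and 1.46 with library totals, below the cutoff).

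Surface receptors mostly did not pass: 3 of 21 fell and 0 rose (median −0.37), and 6 fell when 1 h replicate 3 was left out and 5 with library totals. Cxcr4, the receptor for CXCL12, was at 247, 274 and 263 CPM at 1 h and at 4.75, 4.17 and 2.19 CPM at 4 h. The control mean was 337 CPM, so most of the fall came between 1 h and 4 h (log2 fold change −6.12, SE 0.21, edgeR adjusted p = 7.98e-29). Cx3cr1, the fractalkine receptor, fell from 19.7 ± 2.55 to 3.92 ± 1.05 CPM, and its level at 1 h was already below its control mean of 39.81 CPM. Ccr1 fell from 39.4 ± 7.52 to 10.8 ± 2.253 CPM. Its control mean was 10.99 CPM, so Ccr1 had risen by 1 h and was back near its control level at 4 h (log2 fold change −0.02 against the control). Csf1r, the M-CSF receptor, was at 657 ± 50.4 and 419 ± 45.1 CPM (−0.65, interval −0.88 to −0.42), under the cutoff.

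**Figure D4:**
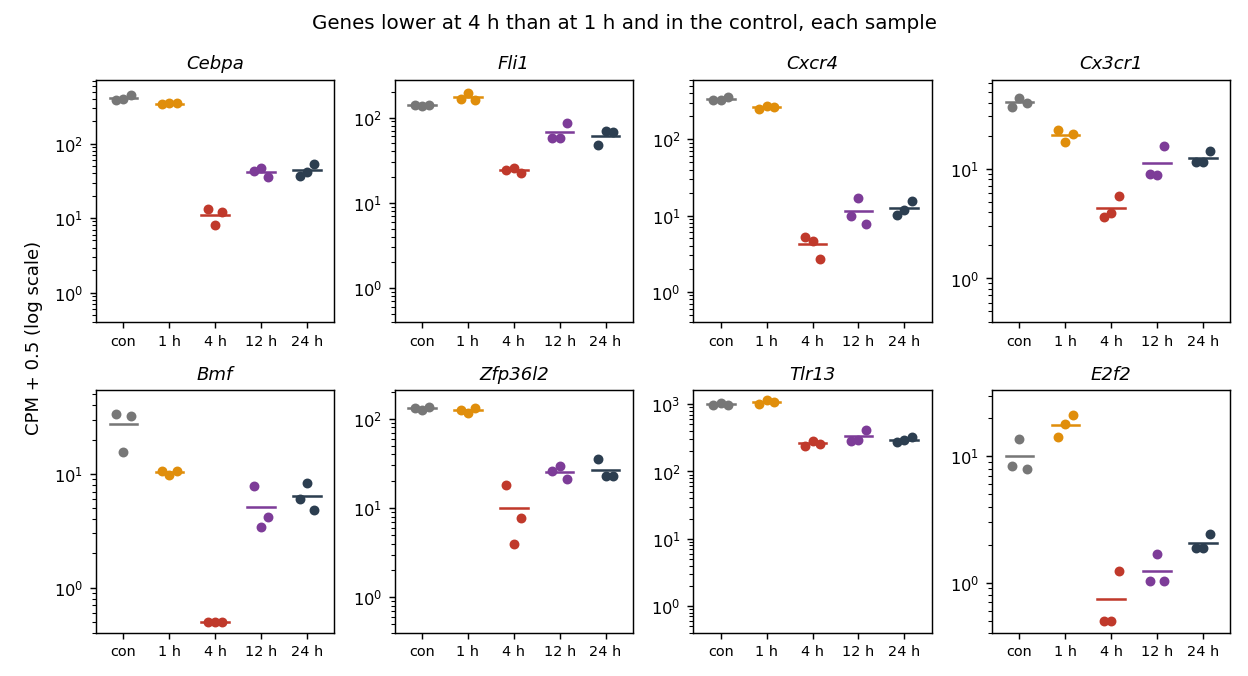
Levels of 8 genes in each sample of the control (con) and of 1, 4, 12 and 24 h, in TMM-normalized CPM plus 0.5 on log scales that differ between panels; points are samples and lines are group means (n = 3). In all 8 genes the 4 h samples lie below the 1 h and the control samples, and Bmf has 0 counts in all 3 samples at 4 h.

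Some genes of cell death and of the cell cycle also fell. In the BCL2 family 4 of 14 fell and 2 rose. Bmf, a BH3-only protein, went from 10.2, 9.32 and 10.1 CPM at 1 h to 0 counts in all 3 samples at 4 h, at least 13.4-fold lower with 3 counts over the group as the floor, and it was at 26.7 CPM in the control. The BH3-only genes Pmaip1 and Bcl2l11 fell by 1.90 and 1.65, Bcl2l11 to its control level (120.2 CPM in the control and 119 CPM at 4 h). The survival gene Bcl2 fell as well (−2.10), to 3.68 CPM at 4 h, below its control mean of 14.8 CPM. In contrast, the survival genes Bcl2a1a and Bcl2a1d rose by 2.21 and 2.06. The Bcl2a1 copies are near-identical and their counts are uncertain as separate genes. Of 27 DNA replication and mitosis genes, 9 fell and 1 rose (median −1.43), and the 9 were all below the control mean at 4 h. With library totals 15 fell. E2f2, an activator of S phase genes, was at 13.8, 17.5 and 20.7 CPM at 1 h and at 0, 0 and 0.731 CPM at 4 h, and the 1 count left gives a ratio of 0.0141 (interval 0.000354 to 0.0803). Kif11, a mitotic motor, fell from 23.1 ± 3.88 to 3.73 ± 0.986 CPM. The cyclin E genes split: Ccne2 fell from 11.1 ± 4.94 to 1.65 ± 1.74 CPM, and Ccne1 rose from 6.84 ± 0.193 to 33.7 ± 4.87 CPM. Counts on both strands gave Ccne2 a log2 fold change of −1.20, which did not pass. Among 20 transcriptional repressors and Krüppel-type factors, 5 fell and 0 rose. Id3 went from 335 ± 21.7 to 36.6 ± 11.1 CPM and Ski from 120 ± 11.4 to 23.8 ± 3.74 CPM. Mnt, a MAX partner that opposes MYC, went from 10.7 ± 4.15 to 1.46 ± 0.703 CPM. The control mean of Id3 was 158.8 CPM, between its levels at 1 h and 4 h.

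**Figure D5:**
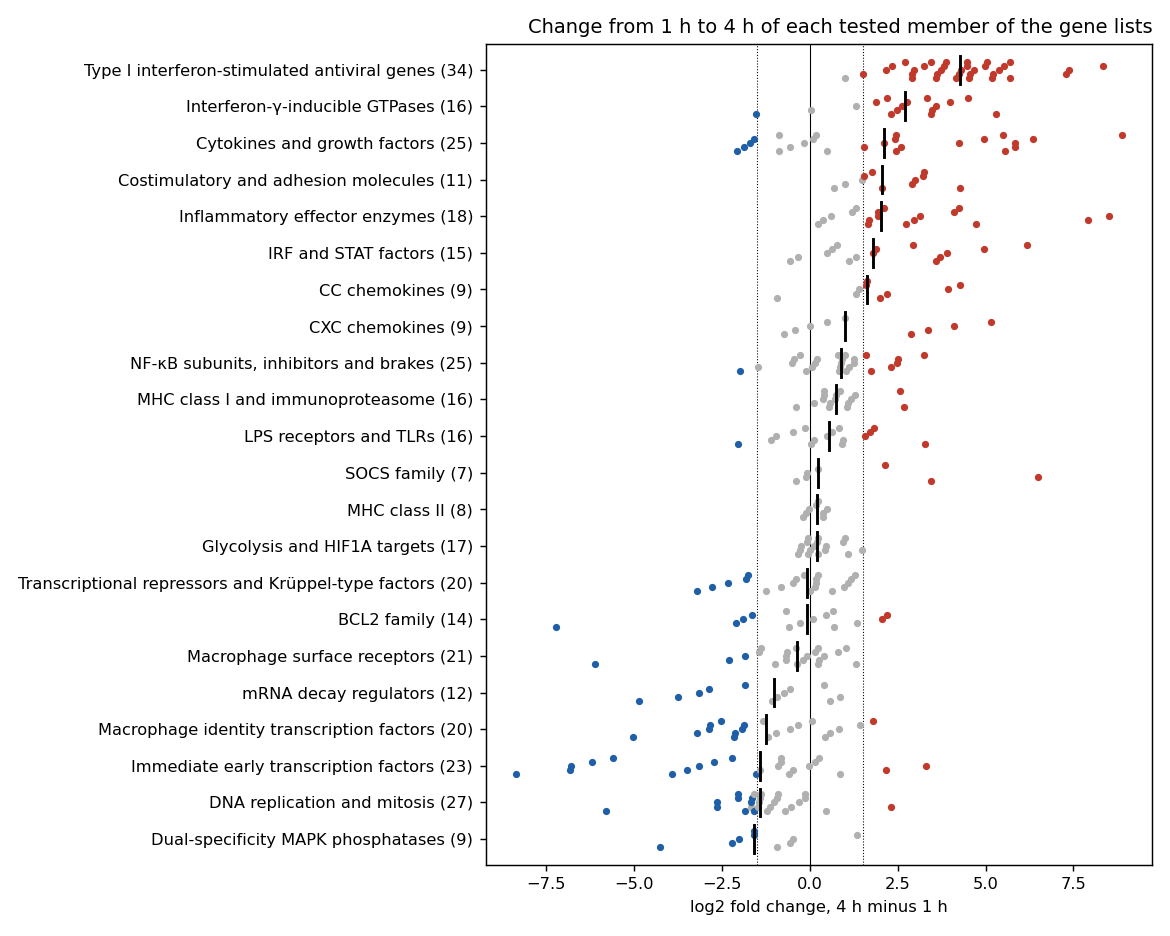
Log2 fold change from 1 h to 4 h (x axis, 4 h minus 1 h) of each tested member of the 22 gene lists (y axis, number tested in brackets), with red for genes that rose, blue for genes that fell, grey for genes that did not pass, black bars at list medians and dotted lines at the cutoff of 1.5. The antiviral list lies furthest to the right with a median of 4.26, and the MAP kinase phosphatases furthest to the left with a median of −1.58.

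Outside these lists, the genes with the largest changes included several that were undetected at one time. Slfn4, a schlafen gene of myeloid cells, had 0 counts at 1 h and was at 30.1, 32.7 and 34.3 CPM at 4 h, at least 63.3-fold higher by the floor of 3 counts over the group, and at 438 CPM by 12 h (edgeR adjusted p = 0.00205). Mycl, a relative of Myc, was also at 0 counts at 1 h and at 18.2, 15.98 and 15.35 CPM at 4 h, at least 32.1-fold higher, while Myc itself fell as given above. BC094916 went from 0 counts to 10.9 ± 3.02 CPM (at least 21.1-fold), Ifit1bl1 from 0.712 ± 0.394 to 133 ± 17.5 CPM, and Pydc4 from 3 counts to 417 (ratio 199.9, interval 67.9 to 973). In the other direction, Zfp395 went from 12.7, 10.5 and 6.90 CPM to 0 counts, at least 13.4-fold lower, and Fam214a from 191 counts to 1 (ratio 0.00753, interval 0.00019 to 0.0424). Rab3il1 and Eepd1 likewise fell to 1 count, from 23.7 ± 4.14 and 16.01 ± 1.66 CPM. In all, 10 genes that rose had 0 counts at 1 h and 14 that fell had 0 counts at 4 h. The highest levels hardly moved: Lars2, Mir6236, Ctsb and Ctsd were among the 5 highest genes at both times, with log2 fold changes of 0.38, 0.15, −0.04 and −0.25. The fifth place passed from Psap, a lysosomal saposin precursor (14580 CPM at 1 h), to Irg1 at 4 h. Lars2 was at 83090 CPM at 1 h and 107900 CPM at 4 h, and Mir6236 at 35850 and 39660 CPM. Whether the reads at Lars2 and Mir6236 come from transcripts of these genes or from ribosomal RNA was not tested.

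Called genes were also described by their place on the chromosomes and by size. Runs of at least 4 neighbouring tested genes that all rose were found 9 times, and of genes that all fell once. The longest run held 10 genes on chromosome 11 (48861968 to 49135387, GRCm38), from Irgm1 through Tgtp1 and Tgtp2 to Ifi47. Others were the 6 Oas genes on chromosome 5, 6 genes around Phf11 on chromosome 14, 5 genes of the Ifi200 cluster on chromosome 1 and 5 Ifit genes on chromosome 19. These clusters hold close paralogs, so that reads can be shared among neighbours. The only run of falls, on chromosome 8, held Zswim4, Mri1, Cacna1a and Ier2. By GENCODE M21 models, the median span of the immediate early transcription factors was 6.71 kb with 3 exons and that of the mRNA decay regulators 7.61 kb, against 24.4 kb and 9 exons over all tested genes with a model. The genes that rose spanned 26.1 kb and those that fell 31.2 kb in the median. These early lists were thus shorter than the genes that fell as a whole, a difference that was not tested. Short spans were not particular to them: the median was 2.1 kb for the CC chemokines and 3.5 kb for the CXC chemokines. It was 15.6 kb for the antiviral list and 20.1 kb for the IFN-γ-inducible GTPases.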

How the data were processed

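RNA-seq was performed on BMDMs, and the authors trimmed reads with Trimmomatic (0.33), aligned them to mm10 with STAR (2.5.1) and deposited raw read counts per gene for each sample, as whole numbers without normalization, on 24411 symbols. CASAVA 1.8.2 and DESeq2 are also named in the submitters' processing notes. The annotation release is not given in the sources used here. Reads that matched no gene feature on the strand made up 65.6% to 67.9% of all reads counted to a gene, to none or to several in the 6 samples.

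The counts of 15 time-course samples (5 groups of 3) were fitted with R 4.3.3 and edgeR 4.0.16 (filterByExpr by group, TMM, robust quasi-likelihood fit), and 4 h was tested against 1 h. Rn45s was left out. A gene was called at an adjusted p of at most 0.01 if its log2 change was 1.5 or more in size. The SE was taken as the size of the log2 change divided by the root of the F statistic. Ratios of genes with 1 to 3 counts have exact 95% intervals, and the floor for 0 counts is 3 counts over a group. Both cover counting error only. Named genes were the 10 largest rises and falls with a mean of at least 10 CPM and no overlap, 3 members each way per list, a fixed set of key genes and the 5 highest at each time. List members named beyond this rule were chosen after their values were seen. The members and lists were chosen with earlier results of these data known. No list's median rested on a member with 0 to 3 counts. The scripts were tested on simulated data.

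The study's methods call the replicates biological triplicates from separate RNA preparations. Whether these came from separate animals or cultures is not given in the sources used here, and p-values measure the spread between these samples. Replicates differed by more than sampling noise (chi-square per degree of freedom 1.33 to 4.14). Alternatives were DESeq2 1.42.0, other size factors, other filters, unstranded counts, Rn45s kept, the 6 samples alone, other cutoffs, a replicate block and leaving out each sample. Promoter windows came from RefSeq and gene positions from GENCODE M21. Some items are not reported here.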

Additional observations from a re-analysis of the deposited data

Results flagged for a closer look

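Signal was also present in the counts on the strand opposite to the annotated gene, which the comparison did not use, and which are given here as CPM of the gene-strand total. Of 540 genes with enough opposite-strand counts to be tested with edgeR between 1 h and 4 h, 56 rose and 32 fell past the same cutoffs. Those that stood highest at 4 h were Gm14023, Apobr, Tor1aip2, Tmem206 and Slfn5os. At Gm14023 the opposite-strand mean was 0.660 CPM in the control, 426 at 1 h and 1527 at 4 h, and the gene overlaps Il1a on the other strand, which was itself at 1419 and 6080 CPM. At Apobr it was 10.3 at 1 h and 192.9 at 4 h, where Il27 (36.3 and 2093 CPM) and Cln3 (144 and 233 CPM) lie on the other strand. At Tor1aip2 it went from 24.7 to 134, beside Tor1aip1 (234 and 811 CPM), and at Slfn5os from 4.37 to 108.2, across Slfn5 (86.7 and 2267 CPM). At Tmem206 it went from 27.1 to 108.9, with Ppp2r5a (80.6 and 359 CPM) 1061 bases away. In each case a neighbour on that strand rose over the same step, and whether these reads are part of the neighbour's transcript was not tested.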

How the results depend on the processing

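The numbers of genes that rose and fell (676 and 665) stayed within 1.5 times of these values with DESeq2 (683 and 584), its size factors in edgeR (687 and 650), upper quartile factors (602 and 779, with the median of all genes moved by −0.13), no filter beyond 1 count (727 and 755), unstranded counts (678 and 662), Rn45s kept (686 and 656) and a fit of the 6 samples alone (627 and 551). With a sample left out in turn, 670 to 698 genes rose and 628 to 659 fell. They moved further with at least 10 counts in each of the 6 samples (426 and 217, from fewer genes tested), with the cutoff as the null hypothesis (375 and 213), with the size cutoff lowered to 1 (1089 and 1125), and with library totals without TMM factors (482 and 1057, added after seeing the data). Samples of 1 h and 4 h with the same replicate number shared almost no deviation from their group means (correlations −0.02, 0.01 and −0.03). Counting noise at this depth can shrink such values, so they cannot show whether the samples were paired. A fit with the replicate block gave 680 and 666 genes. No called gene among the 110 named reversed its direction under these alternatives. Of their results under the alternatives, 1907 results kept their side of the cutoffs, 31 results of 18 genes lost it and 2, both of Ccl4, gained it. A gene removed by the filter of an alternative has no result there. With at least 10 counts in each of the 6 samples, genes near 0 counts at one time, such as Egr1, Nr4a1, Nos2 and Il12a, were not tested. With the cutoff as the null hypothesis, Slfn4, Irg1, Cx3cr1, Osm, Vegfa, Bcl2 and Ccr1 were among the 16 named genes that lost the call. Lists of falling genes also shrank in that test. The falls went from 9 to 5 in the macrophage identity factors and from 9 to 2 in the DNA replication and mitosis genes. They went from 4 to 1 in the BCL2 family, and from 5 to 2 in both the MAP kinase phosphatases and the list of transcriptional repressors. With 1502618 to 2101752 counts per sample, genes near 0 counts have only bounds or wide ratios.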
